A study of Mus musculus with 6 samples.

Results

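The cytochrome P450 families 1 to 3 of the mouse were described in livers of 2 yr old male mice, as 54 rows of a count table of 32212 gene rows. A row was a member when its symbol began with Cyp, the number 1, 2 or 3, a letter and a number, and when it had at least 10 counts over the 6 libraries. A total of 76 rows matched the symbol, and the 22 left out held at most 9 counts each, with 14 of them at 0 in every library. The members fell into 14 subfamilies, from Cyp1a to Cyp3a, and 50 of them were annotated as protein coding and 4 as pseudogenes. Of the 54 members, 47 passed a filter on low counts and were tested.

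The study asked what loss of chromogranin A (CgA), a prohormone of neuroendocrine cells encoded by Chga, does to ageing mice. Poly(A)-selected RNA was sequenced from 3 WT and 3 CgA-KO male livers, all on a C57BL/6 background and fed normal chow. The knockout was in the whole animal, so it is not particular to hepatocytes. Library totals ran from 10558616 to 31087453 counts, with WT replicate 1 the shallowest, and 3 counts corresponded to 0.0951 to 0.269 CPM (counts per 1000000 after TMM scaling). Chga had 0 counts in all 6 libraries, so its level checked no genotype label, and Xist had 1 to 10 counts beside 644 to 1161 counts of the Y-linked gene Ddx3y, the pattern of males in every library. The members took the largest share of counts in CgA-KO replicate 2. They made up 2.91% of its counts (95% Wilson interval 2.90% to 2.92%, counting error only), against 1.87% to 2.03% in the other 5 libraries.

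Cytochrome P450 enzymes are haem proteins of the endoplasmic reticulum that insert an oxygen atom into lipophilic compounds, with electrons delivered by the reductase Por. Families 1 to 3 handle drugs, carcinogens, plant compounds, steroids and fatty acids, and most of their expression is in the liver, strongest around the central vein. Family 1 is induced through the aryl hydrocarbon receptor, Cyp2b genes through the receptor CAR (Nr1i3) and Cyp3a genes through PXR (Nr1i2). In mice the families have expanded into clusters of close paralogs, and several of these paralogs differ between the sexes under the pattern of growth hormone secretion.

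Genes called higher in CgA-KO livers had paralogs of differing likeness in the same cluster, and upstream sequences are shown to make that likeness visible. RefSeq promoter windows of GRCm38.p6, 250 bases before to 50 bases after a start, matched 43 of the 54 members. The following lines give bases 150 to 41 before the start, 5′ to 3′ on the gene's strand, for 3 paralog pairs in which at least 1 gene was higher in CgA-KO livers. Capitals mark CAAAGTCC, a sequence bound by the hepatocyte factor HNF4A.
Cyp2a4, chr7:26307042-26307151, plus strand: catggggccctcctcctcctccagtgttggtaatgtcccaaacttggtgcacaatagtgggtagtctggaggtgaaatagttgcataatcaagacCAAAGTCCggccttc
Cyp2a5, chr7:26835189-26835298, plus strand: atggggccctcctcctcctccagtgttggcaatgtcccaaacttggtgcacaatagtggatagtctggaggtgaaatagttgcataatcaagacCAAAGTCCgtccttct
Cyp2b9, chr7:26173259-26173368, plus strand: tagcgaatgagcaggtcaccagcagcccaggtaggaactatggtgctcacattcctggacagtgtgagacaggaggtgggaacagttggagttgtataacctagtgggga
Cyp2b10, chr7:25897508-25897617, plus strand: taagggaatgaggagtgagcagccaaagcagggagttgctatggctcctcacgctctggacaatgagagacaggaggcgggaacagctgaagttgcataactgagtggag
Cyp3a41a, chr5:145720177-145720286, minus strand: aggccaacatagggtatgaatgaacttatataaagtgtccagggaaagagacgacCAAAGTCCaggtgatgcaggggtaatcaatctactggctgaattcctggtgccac
Cyp3a44, chr5:145805915-145806024, minus strand: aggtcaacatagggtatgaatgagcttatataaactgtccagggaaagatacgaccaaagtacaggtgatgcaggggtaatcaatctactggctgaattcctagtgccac

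Over the 250 bases before the start, Cyp2a4 and Cyp2a5 were 97.6% identical (6 edits), and Cyp3a41a and Cyp3a44 were 94.4% identical (14 edits). Cyp2b9 and Cyp2b10 were 70.0% identical, while Cyp2b9 and Cyp2b13 differed by 2 edits. Cyp3a44 carried the 8-base motif with the substitution C7A, counted from the motif's first base, at the place where Cyp3a41a held it unchanged. On either strand, CAAAGTCC was found in 12 of the 43 matched members (27.9%) and in 1.42% of all 32851 windows. Among the 7 matched members called in the test described next, 2 held it, Cyp2a4 and Cyp3a41a. The letters TTCNNNGAA, the core recognised by STAT5 and BCL6, were in 0 of the 43 members and in 8.30% of all windows. Members of 1 cluster can share most of their upstream bases, as Cyp2a4 and Cyp2a5 do, so neither count is over independent windows. Each member was counted by 1 window, while the background took every window, also of genes not expressed in liver. These matches describe letters within 300 bases only, and no binding was measured.

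CgA-KO livers were compared with WT livers by edgeR's quasi-likelihood test over all 13867 rows that passed the filter, with Benjamini-Hochberg adjustment and calls at an adjusted p under 0.05. The members were called in 8 of 47 cases (17.0%), beside a background of 12.4% of all rows tested. Those that rose, Cyp2a4, Cyp2b10, Cyp3a41a, Cyp3a44 and Cyp3a59, were 10.6% of the members beside 8.60% of all rows. Cyp2d13, Cyp2d40 and Cyp2r1 fell, 6.38% of the members beside 3.84% of all rows. At an unadjusted p under 0.05 there were 15 of the 47 members, beside 4032 of all 13867 rows. DESeq2 called 18.8% of all rows and limma-voom 13.1%, which are the backgrounds of their counts given below. The genotypes did not overlap in 15 of the 47 members, 8 higher and 7 lower in CgA-KO, and this 31.9% compares with 33.6% of all rows tested. The log2 fold change was positive in 24 members and negative in 23, with a median of 0.01 beside -0.01 over all rows. Most of the called members were of low abundance in WT. A mean of at least 100 CPM in WT was held by 22 members, with 1 called, against 7 of the 25 tested members below it. The shares called among all rows on either side of that level were not taken, so this split is a description. A gene high in CgA-KO alone also falls on its low side. In bulk RNA, fewer hepatocytes and less RNA per hepatocyte cannot be told apart.

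**Figure D1:**
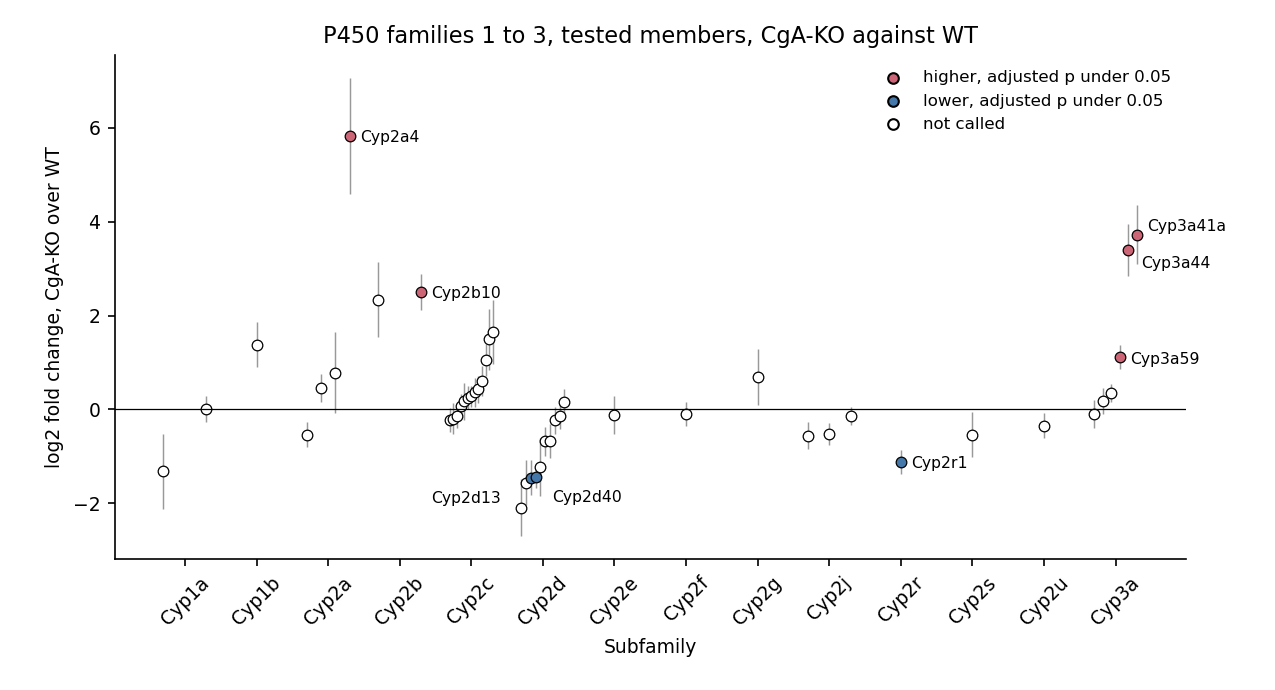
Log2 fold change of CgA-KO over WT (vertical axis) for each of the 47 tested members, grouped by subfamily on the horizontal axis, with bars of 1 standard error. The 5 members called higher lie between 1.11 and 5.83 and the 3 called lower between -1.46 and -1.11, while the 13 tested Cyp2c members hold no call and the Cyp2d points lie below 0 but for 1.

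The enzymes that carried most of the P450 RNA were among those not called. Summed over all 54 members, the level was 21969.8 ± 3870.5 CPM (SD, n = 3) in WT and 20629.8 ± 5145 CPM in CgA-KO, and the libraries overlapped. On this scale CgA-KO replicate 2, at 26449 CPM, lay close to WT replicate 2, at 25957 CPM. Per kilobase of its main transcript, Cyp2e1 was the most abundant member at 3359 CPM per kb in WT and 3099 in CgA-KO. Cyp3a11 followed at 2342 and 2190.1 CPM per kb, and both were far above the rest in either genotype. Cyp2c29, the third in WT at 570.2 CPM per kb, was close to Cyp2d9 at 535, and in CgA-KO it stood at 517, below Cyp3a25 at 591.

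Cyp2e1, which oxidises ethanol, acetone and paracetamol, had 4379.9, 7910.4 and 6181 CPM in WT replicates 1, 2 and 3, and 4095, 8835 and 4113 CPM in CgA-KO replicates 1, 2 and 3. CgA-KO replicate 2 had the highest level of the 6 and the other CgA-KO libraries the lowest, so the groups overlapped, with a log2 fold change of -0.12 (SE 0.399, adjusted p = 0.881). Cyp3a11, the main adult Cyp3a enzyme of mouse liver, had 4597, 6837 and 5034 CPM in WT against 4269.7, 5568 and 5564 CPM in CgA-KO. Its groups also overlapped, with a log2 fold change of -0.10 (SE 0.295, adjusted p = 0.864). For Cyp2c29, a Cyp2c enzyme induced through CAR and PXR, the levels were 973, 1153 and 925 CPM in WT against 812, 1185 and 767 CPM in CgA-KO, a difference of -0.14 on the log2 scale (adjusted p = 0.765). Cyp1a2, the caffeine-oxidising enzyme of pericentral hepatocytes, differed by 0.01 (SE 0.278, adjusted p = 0.986), at 410.4 ± 71.7 CPM in WT against 413 ± 130.5 CPM in CgA-KO. Cyp2f2, the naphthalene-oxidising enzyme that marks periportal hepatocytes, was at 596 ± 101 and 559.7 ± 129 CPM (adjusted p = 0.855). The fixed list of pericentral P450s, Cyp1a2, Cyp2a5, Cyp2c29, Cyp2c37, Cyp2c50, Cyp2c54, Cyp2e1 and Cyp3a11, had 0 of 8 called, with 0 at an unadjusted p under 0.05 and 4 positive and 4 negative fold changes around a median of -0.04. DESeq2 and limma-voom called 0 of the 8 as well. Their summed level of 12323 to 19275 CPM in WT overlapped that of 11502 to 19460 CPM in CgA-KO.

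**Figure D2:**
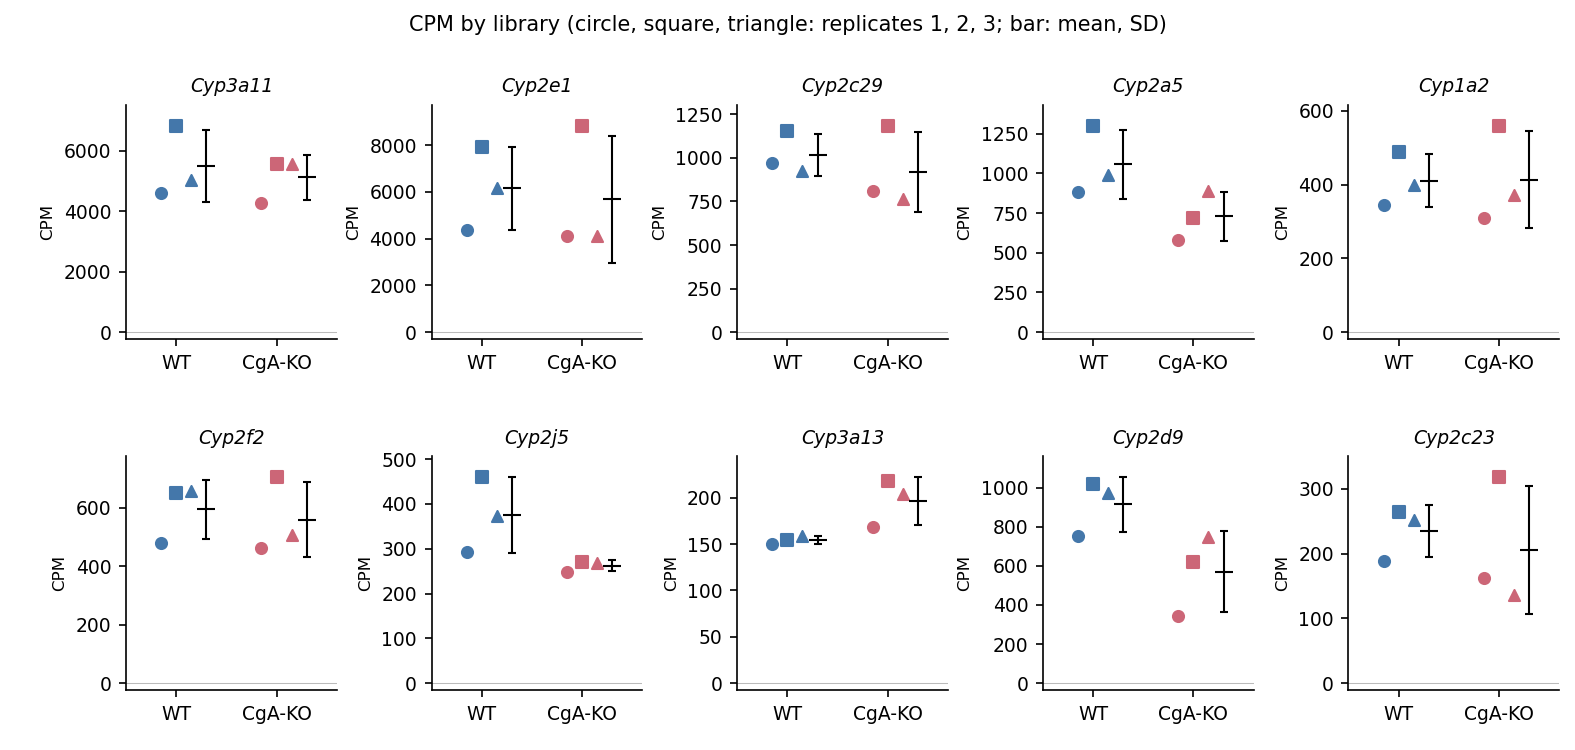
Levels in CPM (vertical axes, from 0) of 10 abundant members in each WT (blue) and CgA-KO (red) library, with circles, squares and triangles for replicates 1, 2 and 3 and a bar for mean and SD. None of the 10 was called; the groups overlap in 7 panels, and do not in Cyp2j5 and Cyp2d9, lower in CgA-KO, and Cyp3a13, higher in CgA-KO.

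The Cyp2b subfamily had the largest ratio between the genotypes of any subfamily sum. It was at 13.8, 12.8 and 14.1 CPM in the WT libraries and 81.8, 117 and 20.4 CPM in the CgA-KO libraries, a ratio of 5.38 between the means. As a share of all member counts it was 0.0633% ± 0.0132 in WT and 0.347% ± 0.208 in CgA-KO, again without overlap.

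Cyp2b10 (chr7:25897620-25926624, GRCm38) is the classical target of CAR and the enzyme induced by phenobarbital. It was at 4.48, 6.30 and 7.71 CPM in WT against 40.3, 48.6 and 17.1 CPM in CgA-KO. Every CgA-KO library lay above every WT library, and the log2 fold change of 2.50 (SE 0.385, adjusted p = 0.00703) corresponded to 5.67-fold. No 100-base window of its main transcript was shared with another gene. The call was lost in 1 of 15 alternatives, without WT replicate 2 (adjusted p = 0.0546). Cyp2b9 (chr7:26173411-26210661), which is higher in female than in male mouse liver, was at 9.05, 6.34 and 6.35 CPM in WT against 40.4, 65.0 and 3.18 CPM in CgA-KO. Its first and second CgA-KO libraries were over the WT range and the third was below it, and the log2 fold change of 2.33 (SE 0.798, adjusted p = 0.0895) was not called. Without CgA-KO replicate 3 it was 2.90 (adjusted p = 0.00403). Cyp2b13, its near neighbour in sequence, did not pass the filter and had 3, 4 and 1 counts in WT and 22, 101 and 3 counts in CgA-KO. CgA-KO replicates 1 and 2 were thus high in both Cyp2b9 and Cyp2b13, whose main transcripts share few 100-base windows (9.29% of those of Cyp2b13 with any gene, 1.18% of those of Cyp2b9).

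Cyp2a4 had the largest fold change among the members. It encodes a steroid hydroxylase that is higher in female than in male liver, and lies at chr7:26307169-26315088. The counts behind it were 6, 9 and 8 in WT and 79, 137 and 1372 in CgA-KO, or 0.537, 0.383 and 0.339 CPM against 3.67, 4.34 and 61.5 CPM. All 3 CgA-KO libraries lay above all 3 WT libraries, and replicate 3 was far above the rest. The log2 fold change of 5.83 (SE 1.23, adjusted p = 0.0189) fell to 3.31 without that library, where the call held (adjusted p = 0.00886). It was lost when any 1 WT library was left out, with limma-voom and with the filter at a summed count of at least 1, and DESeq2 gave it no p-value. The CgA-KO library that was lowest for Cyp2b9 was thus the highest for Cyp2a4.

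Its paralog Cyp2a5 (chr7:26835305-26843548), the coumarin hydroxylase, was far more abundant and moved the other way without a call. It had 882, 1301 and 988 CPM in WT against 578, 719 and 890.1 CPM in CgA-KO, with overlap, and a log2 fold change of -0.54 (SE 0.270, adjusted p = 0.226). Of the 100-base windows of the Cyp2a4 transcript, 11.2% were shared with another gene, mostly Cyp2a5, so the quantification could have moved reads between them. Against that size, Cyp2a4 and Cyp2a5 together came to 1057 ± 218 CPM in WT against 752 ± 187 CPM in CgA-KO, and their sum overlapped between the genotypes.

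In the Cyp3a cluster on chromosome 5, minor members rose while the major ones were not called. Cyp3a41a (chr5:145694049-145720136) is a female-predominant Cyp3a enzyme. It had 0, 5 and 8 counts in WT and 55, 83 and 74 counts in CgA-KO, which is 0, 0.213 and 0.339 CPM against 2.55, 2.63 and 3.32 CPM. The CgA-KO libraries were close to one another and all above WT, and the log2 fold change of 3.72 (SE 0.630, adjusted p = 0.00935) kept its call in all 14 alternatives that tested it. The transcript shared 90.8% of its windows with other genes, nearly all with Cyp3a41b, so the pair can only be read together: it had 0, 0.213 and 0.339 CPM in WT against 2.55, 2.95 and 3.45 CPM in CgA-KO. Cyp3a44 (chr5:145773983-145805874), in the same cluster and also female-predominant, was at 0.179, 0.128 and 0.127 CPM in WT against 2.00, 1.65 and 0.941 CPM in CgA-KO. No CgA-KO library overlapped WT, with a log2 fold change of 3.41 (SE 0.552, adjusted p = 0.00809), and the WT values lay at 2 or 3 counts. The call was lost without WT replicate 3 (adjusted p = 0.0528).

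Cyp3a59 (chr5:146079257-146113287) rose less but from a higher level. The values were 36.5, 62.8 and 52.7 CPM in WT against 119.7, 83.5 and 126 CPM in CgA-KO, without overlap, with a log2 fold change of 1.11 (SE 0.256, adjusted p = 0.0250). Leaving out WT replicate 3, CgA-KO replicate 1 or CgA-KO replicate 3 ended the call, and the highest adjusted p over the alternatives was 0.102. With its neighbour Cyp3a25, whose 250 upstream bases were 94.8% identical, the sum was 1092 ± 283 CPM in WT against 1292 ± 163 CPM in CgA-KO, with overlap. Cyp3a13, an intestinal and hepatic Cyp3a enzyme, was at 149.8, 154 and 159 CPM in WT against 168, 218 and 204 CPM in CgA-KO. It did not overlap and was not called (0.35, adjusted p = 0.271). As a subfamily, Cyp3a summed to 6736 ± 1223 CPM in WT against 6627 ± 711 CPM in CgA-KO, a log2 ratio of -0.02 that became 0.27 when libraries were scaled by total count alone, where all 3 CgA-KO libraries lay above WT. As a share of member counts, Cyp3a overlapped.

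**Figure D3:**
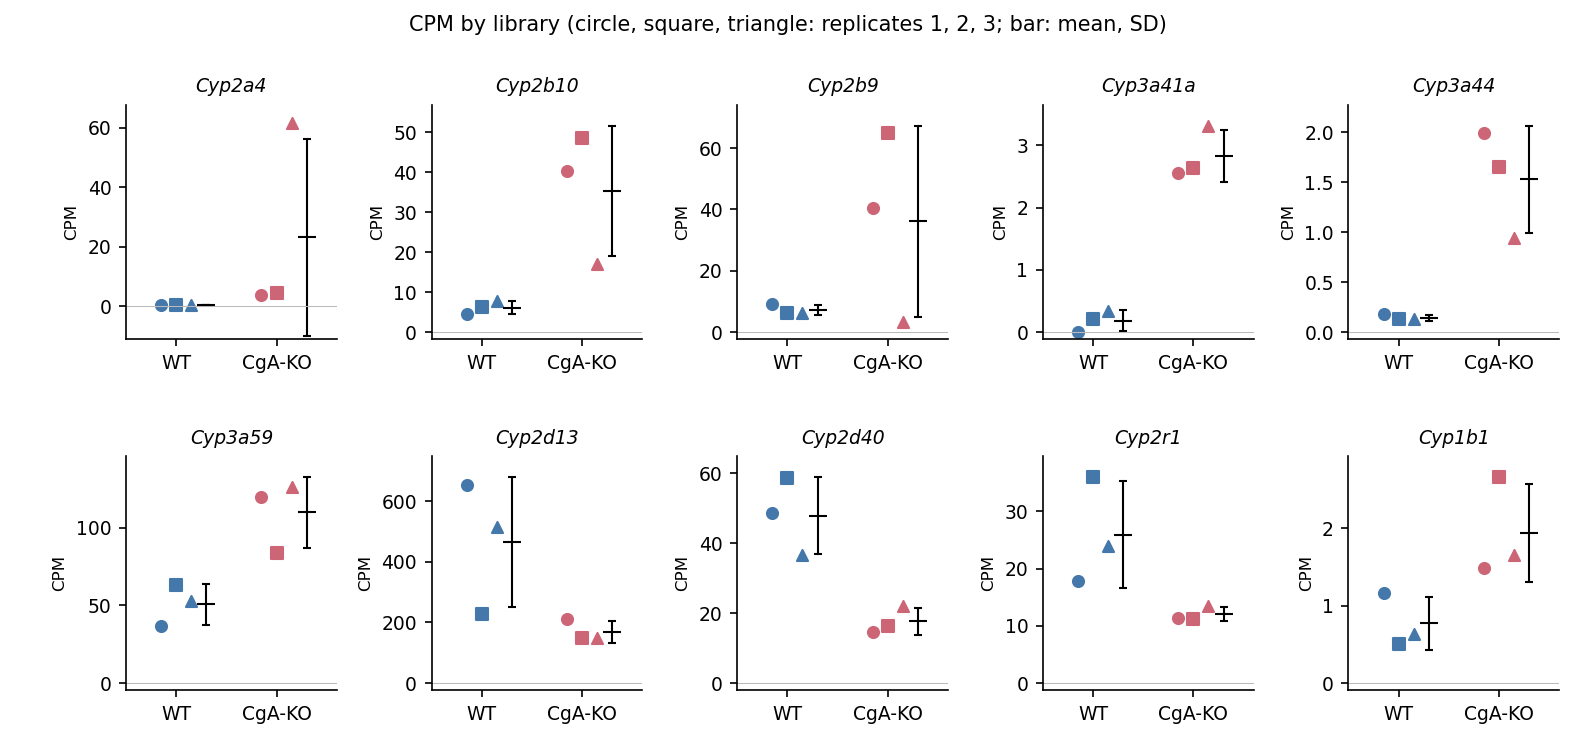
Levels in CPM (vertical axes) of the 8 called members and of Cyp2b9 and Cyp1b1, which were not called, in each WT (blue) and CgA-KO (red) library, with circles, squares and triangles for replicates 1, 2 and 3 and a bar for mean and SD. CgA-KO replicate 3 stands at 61.5 CPM in the Cyp2a4 panel and at 3.18 CPM, below WT, in the Cyp2b9 panel.

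Several of these genes share a list of female-predominant P450s of mouse liver. The list held Cyp2a4, Cyp2b9, Cyp2b13, Cyp2c40, Cyp2c69, Cyp3a16, Cyp3a41a, Cyp3a41b and Cyp3a44, and 6 of the 9 were tested. Of these, 3 rose (Cyp2a4, Cyp3a41a and Cyp3a44), all 6 had a positive fold change, and the median was 2.87 beside -0.01 over all rows. DESeq2 and limma-voom each called 2 of the 6. The list's summed level was 12.0 to 15.2 CPM in WT against 58.2, 108 and 73.2 CPM in CgA-KO replicates 1, 2 and 3. Without Cyp2a4, the CgA-KO sums were 54.5, 104 and 11.7 CPM, and replicate 3 then stood at the lowest WT value, 11.7 CPM. Different members were high in different CgA-KO livers: replicate 2 led for Cyp2b9, Cyp2b13, Cyp2c40 and Cyp2c69, replicate 3 for Cyp2a4 and replicate 1 for Cyp3a44. The CgA-KO levels of Cyp3a41a were close to one another. The 3 members that were not tested were low throughout, with at most 101 counts (Cyp2b13) in a library. The filter kept members that were high in 1 genotype, so the count over those tested is a description.

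The fixed list of male-predominant P450s, Cyp2d9, Cyp4a12a, Cyp4a12b and Cyp7b1, had 4 negative fold changes of 4 and a median of -0.66. Cyp7b1, an oxysterol hydroxylase, fell by 0.90 on the log2 scale (adjusted p = 0.0498), and the other 3 were not called. Under TMM scaling the summed level of the list was 1226 to 1582 CPM in WT against 556 to 1174 CPM in CgA-KO, without overlap. By total count alone the sums overlapped, with CgA-KO replicate 3 above WT replicate 2. Of 9 genes of the growth hormone pathway, 1 was called by edgeR, 2 by DESeq2 and 0 by limma-voom. The shares over all rows were 12.4%, 18.8% and 13.1%. Cux2, a repressor that is high in female mouse liver, was at 1.25, 1.62 and 2.63 CPM in WT against 15.3, 46.0 and 5.33 CPM in CgA-KO, with a log2 fold change of 3.57 (SE 0.720, adjusted p = 0.0164). Its order over the CgA-KO livers, replicate 2 above 1 above 3, was also that of Cyp2b9, Cyp2b13, Cyp2c40 and Cyp2c69, and of Cyp2b10. The called female-predominant members, Cyp2a4, Cyp3a41a and Cyp3a44, had other orders. A link between Cux2 and these genes was not tested. The growth hormone receptor Ghr had 339, 529 and 436 CPM in WT against 250.2, 245 and 270.0 CPM in CgA-KO without overlap, and missed the threshold (adjusted p = 0.0620), as did Stat5b (0.45, adjusted p = 0.0949).

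The Cyp2d subfamily, counterpart of the human debrisoquine hydroxylase, had a lower sum in CgA-KO livers under TMM scaling. It was 2645, 2693 and 2857 CPM in WT against 1515, 2454 and 1867 CPM in CgA-KO. No CgA-KO library reached the lowest WT library, and 9 of the 10 tested members had a negative fold change, with a median of -0.95. The log2 ratio of the sums was -0.49, and -0.22 with overlap when scaled by total count alone. As a share of all member counts, which does not depend on the scaling, Cyp2d made up 14.5%, 10.4% and 13.2% in WT and 9.08%, 9.28% and 9.96% in CgA-KO, again without overlap. Without the row of Cyp2d13, described next, the sums were 1994, 2464 and 2343 CPM in WT against 1305, 2304 and 1719 CPM in CgA-KO. They then overlapped, since CgA-KO replicate 2 lay above WT replicate 1, with a log2 ratio of -0.35, while the shares of member counts still did not (9.49% to 10.9% in WT, 7.82% to 9.17% in CgA-KO).

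Cyp2d40 (chr15:82759833-82764183) was at 48.5, 58.7 and 36.5 CPM in WT against 14.7, 16.3 and 22.0 CPM in CgA-KO. The groups were well apart, and the log2 fold change of -1.44 (SE 0.234, adjusted p = 0.00812), or 2.72-fold lower, kept its call in all 15 alternatives. None of its windows was shared with another gene. Cyp2d13, a transcribed pseudogene in RefSeq at chr15:82636750-82642045, was at 651, 229 and 514 CPM in WT against 211, 149 and 148 CPM in CgA-KO. WT replicate 2 lay near the top CgA-KO library, and the log2 fold change of -1.46 (SE 0.373, adjusted p = 0.0364) lost its call in 7 of 15 alternatives, among them scaling by total count and the removal of any library but WT replicate 2. GENCODE M21 held no gene of this symbol and no strand was available for it. Without a stated strand setting, its reads cannot be told apart from those of any gene that overlaps the locus. Cyp2d9, an abundant male-predominant steroid hydroxylase, was at 755, 1017 and 974 CPM in WT against 344, 621 and 747 CPM in CgA-KO. It did not overlap under TMM scaling, and was not called (-0.68, SE 0.315, adjusted p = 0.190). By total count alone its CgA-KO replicate 3 lay above WT replicate 2. Cyp2d22 had the only positive value, 0.16 (adjusted p = 0.748), with 178 ± 18.2 CPM in WT against 198 ± 69.3 CPM in CgA-KO. Cyp2d34 and the pseudogene Cyp2d36-ps, named after their values were seen, did not overlap either and were called by DESeq2 (adjusted p = 0.0457 and 0.00629) but not by edgeR (-1.56, adjusted p = 0.0655, and -2.09, adjusted p = 0.0545).

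Cyp2r1 (chr7:114549682-114562972), the main enzyme of the first step of vitamin D activation in the liver, fell. It was at 17.8, 36.1 and 24.0 CPM in WT against 11.4, 11.2 and 13.4 CPM in CgA-KO. The CgA-KO libraries were within a narrow range below all WT libraries, and the log2 fold change of -1.11 (SE 0.262, adjusted p = 0.0268) corresponded to 2.17-fold lower. Leaving out any library other than WT replicate 1 ended the call, with an adjusted p of at most 0.0957.

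The arachidonic acid epoxygenases of the list, Cyp2c23 (Cyp2c44 in older naming), Cyp2j5, Cyp2j6 and Cyp2j9, had 0 of 4 called by edgeR, 0 at an unadjusted p under 0.05 and 0 by DESeq2 or limma-voom. These enzymes form the vasoactive epoxyeicosatrienoic acids. All 4 fold changes were negative, with a median of -0.35. Cyp2j5, which in the mouse is abundant in kidney and liver, was at 292, 461 and 373 CPM in WT against 248, 271 and 269 CPM in CgA-KO. Its groups did not overlap (-0.52, SE 0.231, adjusted p = 0.178). The Cyp2j sum was 465 ± 83.4 CPM in WT against 335 ± 23.8 CPM in CgA-KO, without overlap under TMM, total count and as a share of member counts. Cyp2c23 was at 235 ± 40.6 and 206 ± 98.6 CPM (-0.19 on the log2 scale, adjusted p = 0.747).

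**Figure D4:**
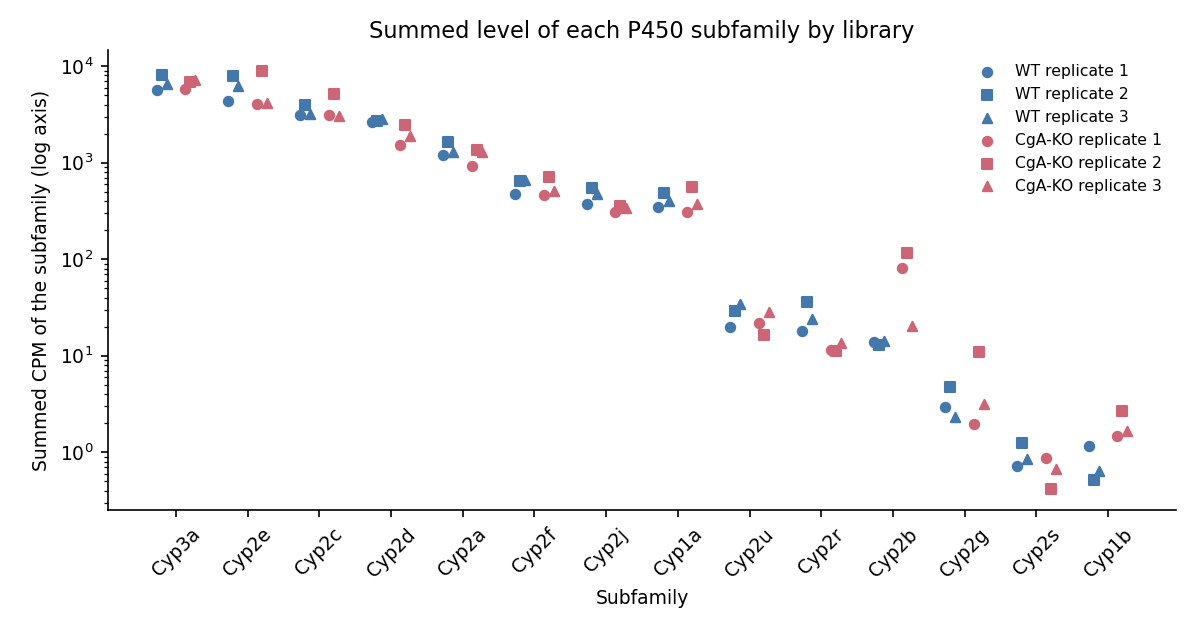
Summed CPM of each of the 14 subfamilies (vertical log axis) in every WT (blue) and CgA-KO (red) library, ordered by the WT mean, with circles, squares and triangles for replicates 1, 2 and 3. Cyp2b lies higher in all 3 CgA-KO libraries (20.4 to 117 CPM against 12.8 to 14.1), Cyp2d and Cyp2j lie lower in all 3, and the Cyp3a, Cyp2e and Cyp2c sums overlap on this TMM scale.

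Family 1 had 0 of 3 members called by edgeR, DESeq2 or limma-voom, with 1 at an unadjusted p under 0.05. Cyp1a1, the most inducible target of the aryl hydrocarbon receptor, was near the floor at 0.448, 1.36 and 1.36 CPM in WT against 0.139, 0.159 and 1.03 CPM in CgA-KO. The groups overlapped, with a log2 fold change of -1.31 (SE 0.796, adjusted p = 0.314). Cyp1b1, an extrahepatic and stromal family 1 enzyme, was at 1.16, 0.511 and 0.635 CPM in WT against 1.49, 2.66 and 1.66 CPM in CgA-KO. All 3 CgA-KO libraries were higher, and the log2 fold change of 1.38 (SE 0.476, adjusted p = 0.0917) was called only without WT replicate 1 (adjusted p = 0.0446). These members with Cyp1a2 make up the list of aryl hydrocarbon receptor targets, and the receptor's repressor Ahrr had 0.448, 0.0425 and 0.296 CPM in WT against 1.86, 0.793 and 1.43 CPM in CgA-KO (2.48, adjusted p = 0.0545).

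The Cyp2c subfamily, the largest with 16 members, had 0 of 13 tested members called by edgeR, with 3 at an unadjusted p under 0.05 and 1 called by each of DESeq2 and limma-voom. The fold change was positive in 10 and negative in 3, with a median of 0.28 and a range from -0.22 to 1.65. Its sum was 3426 ± 435 CPM in WT against 3761 ± 1182 CPM in CgA-KO, with overlap, and CgA-KO replicate 2 was the highest library at 5125 CPM. Cyp2c39, named after its values were seen, did not overlap (3.31, 2.04 and 1.61 CPM in WT against 4.87, 5.17 and 4.12 CPM in CgA-KO), and had an adjusted p of 0.0802 with edgeR and 0.0387 with DESeq2. Cyp2c40 and Cyp2c69, female-predominant paralogs that share windows with each other, summed to 5.02, 4.76 and 5.17 CPM in WT against 8.40, 30.9 and 3.85 CPM in CgA-KO. Replicate 2 was high and replicate 3 below WT, so this sum overlapped. The pair also shares windows with more abundant paralogs. Cyp2c68 (177 CPM in WT) shared 16.7% of its windows with Cyp2c40, and Cyp2c67 (289 CPM in WT) shared 14.3% with Cyp2c69. The sum therefore does not settle how reads were split.

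The subfamilies with a single low or moderate member gave no call other than Cyp2r1. Cyp2u1, a fatty acid hydroxylase, was at 27.8 ± 7.28 CPM in WT against 22.0 ± 5.98 CPM in CgA-KO (adjusted p = 0.423). Cyp2s1, an epithelial retinoid-metabolising enzyme, stood at 0.932 ± 0.269 and 0.656 ± 0.235 CPM (adjusted p = 0.502). Cyp2g1, the olfactory P450, was at 2.96, 4.72 and 2.33 CPM in WT against 1.95, 10.9 and 3.18 CPM in CgA-KO. CgA-KO replicate 2 set its sign: the log2 fold change was 0.68 with all libraries and -0.34 without it. The 7 members that were not tested, Cyp2b13, Cyp2c52-ps, Cyp2c53-ps, Cyp2c65, Cyp2j8, Cyp3a16 and Cyp3a41b, had summed counts of at least 10 but few per library, and other than Cyp2b13 none had over 17 counts in a library.

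**Figure D5:**
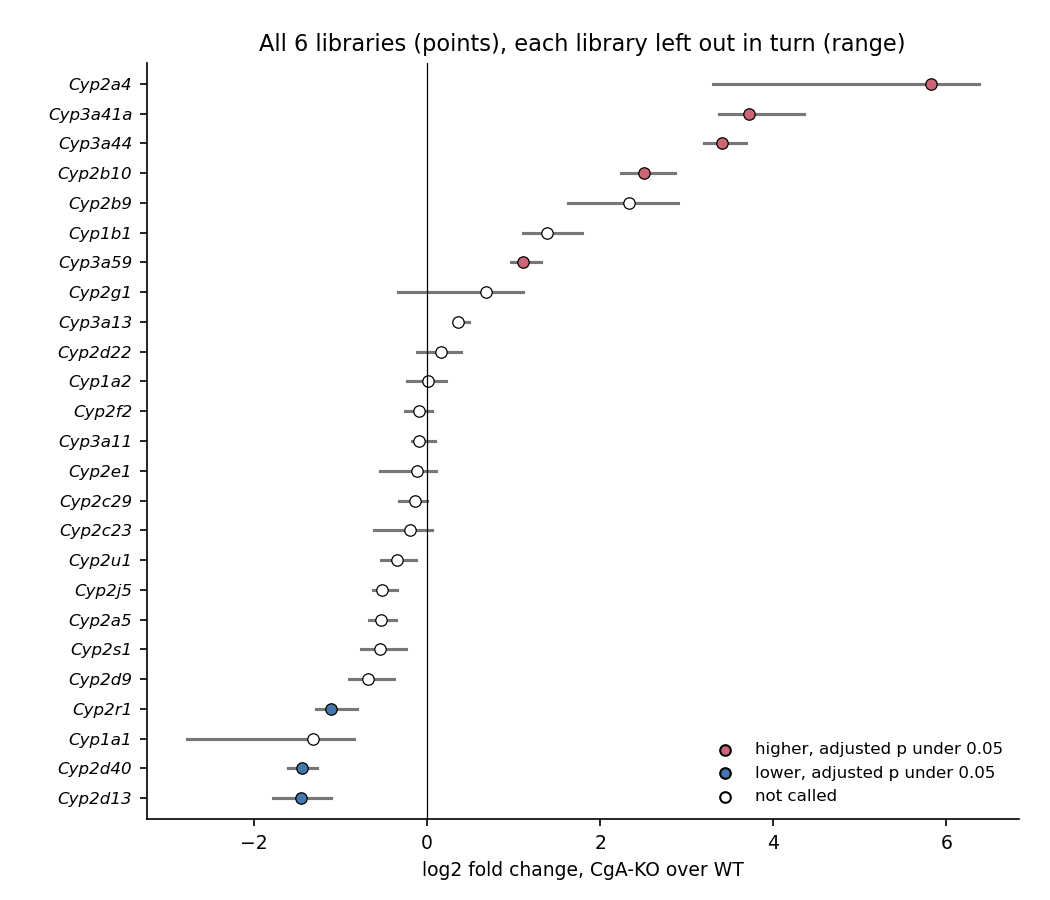
Log2 fold change of CgA-KO over WT (horizontal axis) for 25 members, as points for all 6 libraries and as lines for the range over the 6 fits that each left out 1 library. The range of Cyp2a4 runs from 3.31 to 6.37, and those of all 8 called members stay on one side of 0. The ranges of Cyp1a2, Cyp2c23, Cyp2c29, Cyp2d22, Cyp2e1, Cyp2f2, Cyp2g1 and Cyp3a11 cross 0.

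The proteins that serve the P450s moved in part. Of 7 electron donors and partners, Por, the reductase that all microsomal P450s need, was at 494 ± 48.8 CPM in WT against 501 ± 203 CPM in CgA-KO (adjusted p = 0.976). Cyb5b, an electron carrier of the outer mitochondrial membrane, was the 1 called, at 311, 436 and 349 CPM in WT against 181, 159 and 206 CPM in CgA-KO, and fell by 1.01 on the log2 scale (SE 0.225, adjusted p = 0.0230). Of the 7 fold changes, 6 were negative, with a median of -0.63. Of 11 genes of haem synthesis and breakdown, 3 were called (27.3%, beside 12.4% of all rows). Alas1, the rate-limiting enzyme of hepatic haem synthesis, was at 698, 442 and 966 CPM in WT against 259, 369.6 and 330.1 CPM in CgA-KO, and fell by 1.14 (adjusted p = 0.0474). Alad, the next enzyme, fell by 0.80 (adjusted p = 0.0470). Hmox1, which degrades haem and is high in macrophages, was at 14.8, 15.7 and 12.0 CPM in WT against 51.1, 83.8 and 72.4 CPM in CgA-KO, and rose by 2.29 (SE 0.230, adjusted p = 0.00282). The other 8 were not called.

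Among 13 xenobiotic receptors and cofactors, 1 was called by edgeR and by limma-voom, and 4 by DESeq2, which called 18.8% of all rows. Nr1i3, which encodes CAR, was at 1179, 614 and 1370.0 CPM in WT against 543, 479 and 338 CPM in CgA-KO, and fell by 1.22 (SE 0.341, adjusted p = 0.0496). The receptor's level was thus lower in the livers in which its target Cyp2b10 was higher. Nr1i2 (PXR), Ahr, Rxra and Hnf4a were not called, with log2 fold changes of -0.45, -0.30, -0.23 and 0.01. In the list of 8 CAR and PXR targets, Cyp2b10 was the 1 called, and 5 fold changes were positive with a median of 0.27. Among other phase I enzymes, the aldehyde oxidase Aox3 fell by 0.93 (adjusted p = 0.0255) and the carboxylesterase Ces3a by 1.39 (adjusted p = 0.0188). In the remaining P450 families, 27 of 46 rows were tested and 6 were called (22.2%, beside 12.4% of all rows), with a median of -0.08. On the log2 scale Cyp26a1, Cyp4a10 and Cyp4f16 rose by 2.27, 1.45 and 2.24, and Cyp51, Cyp7a1 and Cyp7b1 fell by 1.61, 1.63 and 0.90.

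The cell make-up of the samples was checked with marker lists. The 10 hepatocyte markers, among them Alb and Ttr, held no call by edgeR, with 1 at an unadjusted p under 0.05 and a median of -0.10 and 1 call by DESeq2, and all 10 were abundant in both genotypes, as the tissue label implies. Of 11 macrophage markers, 10 rose, with a median of 3.04, and their summed level was 135 to 357 CPM in WT against 1473 to 2104 CPM in CgA-KO. Of 4 tested neutrophil markers, 3 rose (summed level 2.54 to 10.2 CPM in WT against 29.2, 314 and 32.0 CPM in CgA-KO replicates 1, 2 and 3), as did 4 of 8 lymphocyte and 4 of 6 stellate cell markers. Limma-voom called 1 of the 4 neutrophil, 0 of the 8 lymphocyte and 5 of the 6 stellate cell markers. Among endothelial markers 1 of 5 rose and 1 fell, and bile duct markers had 0 of 5 called by edgeR, DESeq2 or limma-voom, with 1 at an unadjusted p under 0.05. Of the 6 pancreas and fat markers none passed the filter, and the defining Cpa1 and Pnlip were at 0 in all 6 libraries. CgA-KO replicate 2, with the highest neutrophil level, was also the library in which the members took the largest share of counts. The part of these other cells in the P450 differences was not tested.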

How the data were processed

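Poly(A)-selected liver RNA, 3 libraries per genotype, was sequenced in pairs of 100 bases. The authors quantified the reads with Salmon 1.4.0 on the GRCm38 transcriptome, and the deposited table holds counts, whole numbers per gene symbol without scaling. How transcripts were joined to genes and how strand was set are not given in the sources used here, and reads of close paralogs may have been split. Shared sequence was measured as 100-base windows of each main GENCODE M21 transcript found in other genes.

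Rows passed filterByExpr of edgeR 4.0.16 (minimum count 10) in R 4.3.3. Factors from the trimmed mean of M values (TMM), a robust quasi-likelihood fit with genotype as the only term and a two-sided test followed, with Benjamini-Hochberg adjustment over 13867 rows. An SE was approximated as the absolute log2 fold change over the root of F. Errors of CPM are SD over 3 livers. Subfamily and list sums were given no test, because their members were chosen with results known. Each library is taken as 1 mouse. Replicates differed beyond sampling noise.

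Members named in the text were the most abundant of each subfamily, the called members with the 10 largest changes each way, and a fixed list of 19. The members and gene lists were chosen with earlier results of these data known. Alternatives were DESeq2 1.42.0, limma 3.58.1 (voom), other scalings, filters, thresholds, a replicate block and fits without 1 library. The procedure was tested on simulated data. The result of 1 phase I gene is not reported here. Figures were drawn with matplotlib 3.10.9.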

Additional observations from a re-analysis of the deposited data

How the results depend on the processing

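Of the 8 calls among the members, DESeq2 and limma-voom each made 7, all but Cyp2a4, and library size alone 7, all but Cyp2d13. With 10 counts required in every library 5 members were called (2 higher), beside 11.3% of all rows. At an adjusted p under 0.01 there were 4 (3 higher, 1 lower), beside 2.60% of all rows. DESeq2 called 10 members, 5 of them lower, beside 18.8% of all rows. Leaving out each library in turn gave 3 to 9 called members, 2 to 7 higher and 1 to 3 lower, fewest without WT replicate 3. In the same fits the share called over all rows ran from 2.79% without WT replicate 3 to 14.9% without WT replicate 1. The median log2 fold change of the members ran from -0.23 to 0.17. Scaling by library size alone moved the median of all rows to 0.26 and that of the members to 0.30, and the log2 ratio of the sums to 0.083 for Cyp2a, -0.22 for Cyp2d, -0.18 for Cyp2j and 0.27 for Cyp3a, where Cyp2a and Cyp3a changed sign, as did Cyp2e (0.20), Cyp2f (0.20) and the sum of all members (0.20). The cause was not tested. The Cyp2g sum, a single gene, ran from -0.38 to 1.08 over the fits without 1 library. With a replicate block 7 members were called, Cyp3a59 being lost. Deviations of libraries with the same number correlated at 0.20, 0.01 and -0.07, and those with different numbers at -0.26 to 0.23. So few libraries cannot show whether the numbers pair the mice. For single named members, 341 of the 369 alternative values kept their side of the threshold, 26 lost a call and 2 gained one. The 341 include uncalled members whose sign changed, such as Cyp1a2, at 0.01 with all libraries and -0.23 without CgA-KO replicate 2. All lost calls fell on the 8 called members. Leaving Cyp2d13 out of the Cyp2d sum, chosen after seeing the data, gave -0.35. Depth limits Cyp3a41a and Cyp3a44, with 0 to 8 counts in each WT library.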
